A study of Mus musculus with 54 samples.

Results

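The genes described here are Lgr5, Olfm4, Ascl2, Smoc2, Axin2, Sox9, Rnf43, Znrf3, Lrig1 and Tnfrsf19, 10 of the 48059 named entries of a mouse mRNA table and 10 of the 27998 features of 4 single-cell matrices. They were taken by name, as genes of the Wnt-driven stem cells of the small intestine, and each was found once in both kinds of file. RNA for the mRNA table was taken from crypt cells of the small intestine of C57BL/6J mice, sorted as Sox9-EGFP Low on a green fluorescent reporter of Sox9, itself one of the 10 genes. There were 4 libraries each from mice on chow, on a high fat diet, conventionalized and germ-free, and the labels give no age for these mice. Germ-free mice carry no microbes. The labels do not say how mice were conventionalized, a term used for mice given a microbiota. The single-cell libraries held separated intestinal cells of C57BL6/2J mice aged 12 months, 2 wild-type (WT) samples and 2 miR-375 knockout (KO) samples, prepared as set 1 and set 2 with 1 sample of each genotype per set. MiR-375 is a microRNA abundant in endocrine cells. Where values of the 4 single-cell samples follow each other, their order is WT and KO of set 1, then WT and KO of set 2. The labels do not state how many animals each sample holds, so the p-values measure the spread between these samples.

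Intestinal stem cells sit at the base of the crypt and divide to renew the epithelium. Wnt ligands bind Frizzled and LRP receptors, which stabilises beta-catenin and lets TCF/LEF factors switch on target genes. R-spondins amplify the signal through LGR receptors by removing RNF43 and ZNRF3, the membrane ubiquitin ligases that otherwise clear Frizzled from the cell surface.

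In GENCODE vM21 (build GRCm38) the genes of the receptor and its brake lie at chromosome 10, 115450311 to 115587780, minus strand (Lgr5), chromosome 11, 87662722 to 87735539, plus strand (Rnf43), and chromosome 11, 5276324 to 5444847, minus strand (Znrf3). The feedback target Axin2 lies at chromosome 11, 108920349 to 108950783, plus strand. The transcription factor genes lie at chromosome 7, 142966829 to 142969264, minus strand (Ascl2) and chromosome 11, 112782224 to 112787760, plus strand (Sox9). Genes of secreted proteins lie at chromosome 14, 79984081 to 80023139, plus strand (Olfm4) and chromosome 17, 14279506 to 14404790, plus strand (Smoc2), and those of the other membrane proteins at chromosome 6, 94604529 to 94700158, minus strand (Lrig1) and chromosome 14, 60963875 to 61046490, minus strand (Tnfrsf19).

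Promoter sequence was held for 6 of the 10 genes in the RefSeq table (build GRCm38.p6), as 8 windows of 250 bases ending just before a transcription start. The windows of 2 target genes are shown because Axin2 is a classical readout of Wnt signalling and Ascl2 is the transcription factor that sets stem cell identity, and 1 of Tnfrsf19 because it alone of the 8 held a match to a TCF/LEF motif. Capitals mark that match, and all sequences run 5′ to 3′ on the strand of the gene. The Ascl2 window is chr7:142969265-142969514 (minus strand), the Axin2 window chr11:108920099-108920348 (plus strand) and the Tnfrsf19 window chr14:61037988-61038237 (minus strand), the last overlapping an annotated exon of Gm41168.
Ascl2: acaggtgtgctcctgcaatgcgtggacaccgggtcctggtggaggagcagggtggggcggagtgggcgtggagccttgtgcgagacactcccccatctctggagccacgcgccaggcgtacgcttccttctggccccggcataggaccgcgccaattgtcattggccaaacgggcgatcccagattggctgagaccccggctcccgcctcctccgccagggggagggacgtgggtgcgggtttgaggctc
Axin2: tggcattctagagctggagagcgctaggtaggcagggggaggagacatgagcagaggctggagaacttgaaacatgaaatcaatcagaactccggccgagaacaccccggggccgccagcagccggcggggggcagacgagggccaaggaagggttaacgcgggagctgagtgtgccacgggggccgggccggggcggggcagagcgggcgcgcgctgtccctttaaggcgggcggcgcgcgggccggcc
Tnfrsf19: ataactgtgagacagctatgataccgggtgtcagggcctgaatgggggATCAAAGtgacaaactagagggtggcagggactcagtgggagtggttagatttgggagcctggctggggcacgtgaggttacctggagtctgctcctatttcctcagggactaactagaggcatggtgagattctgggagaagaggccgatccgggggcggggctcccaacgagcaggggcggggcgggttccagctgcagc
The search, on both strands, took CTTTGAA as the first motif, CTTTGAT as the next, CTTTGTA as a further motif and CTTTGTT as the last. The Tnfrsf19 match lies 202 to 196 bases before the start, as ATCAAAG on the gene's strand. Of 32851 such windows in the table, 4874 (14.8%) held at least 1 match, so 1 of 8 is near the background, and a window without one says only that these letters are not in it.

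In the Sox9-EGFP Low libraries the 10 genes spanned a wide range of levels. Expressed as normalized counts per kilobase of exon, so that genes can be compared, Olfm4, a secreted glycoprotein of stem cells, was the highest in chow at 21020 ± 5964 (SD, n = 4). Sox9, a transcription factor of crypt progenitors, followed at 1224 ± 268 per kilobase, Smoc2, a secreted matrix protein, at 1206 ± 165, and Ascl2 at 1119 ± 264. The ranges of those 3 overlapped, while Olfm4 lay apart from them and Ascl2 apart from the next gene. Lrig1, an inhibitor of EGF receptor signalling, was at 416 ± 94.9 per kilobase, Rnf43 at 265 ± 45.6 and Lgr5, the R-spondin receptor that marks these stem cells, at 226 ± 38.4. Tnfrsf19, a TNF receptor family member, was at 151 ± 42.9, Axin2, a negative feedback inhibitor of the pathway, at 85.7 ± 32.9 and Znrf3 at 46.9 ± 23.6. From Lrig1 to Znrf3 each gene's range overlapped that of the next. Olfm4 was also the highest per kilobase in the other 3 groups, and Znrf3 the lowest.

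Summed normalized counts per library ran from 10680267 to 19117886. Germ-free replicates 3 and 4 stood apart from the rest: their median correlation with the other libraries was 0.775 and 0.826, against 0.908 to 0.951 for the other 14. In a small RNA table of the same series, the column of the animal behind chow replicate 3 carries the diet abbreviation HFD, against its label, so the diet comparison is also given without that library. Single-cell samples held 1209 and 1251 barcodes in set 1 and 7711 and 7665 in set 2, of which 1185 to 3156 cells were kept. Before filtering, the median mitochondrial share of UMIs was 5.90% and 5.62% in set 1 and 40.9% and 37.9% in set 2. The filters on genes, UMIs and mitochondrial share left 1197 and 1241 cells in set 1 and 3363 and 3355 in set 2, before doublets were removed. The 2 samples of set 1 shared 1 barcode and those of set 2 shared 12, of which 3 were kept.

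All 10 genes were lower on average in germ-free than in conventionalized mice, by 0.56 (Sox9) to 2.46 (Tnfrsf19) on the log2 scale of normalized count + 1, and none passed the test. Limma called 453 of 20214 genes (2.24%) at an adjusted p under 0.05, 394 higher (1.95%) and 59 lower (0.292%) in germ-free mice. The members' median difference was -1.14, beside 0.11 over all genes tested, and scaling by medians of ratios or quantiles put that background at 0.01 or -0.02 without turning the direction of any member. By raw p under 0.05, 6 of 10 members and 4072 genes in all were below that level. In sorted bulk RNA, fewer stem cells and less stem cell RNA per cell cannot be told apart.

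Lgr5 had normalized counts of 859, 1478, 378 and 730 in germ-free replicates 1 to 4, and of 976, 5167, 3819 and 3233 in the conventionalized ones. Of the 4 germ-free libraries, 3 lay below every conventionalized library, and conventionalized replicate 1 lay among the germ-free values. The log2 difference of Lgr5 was -1.87 (SE 0.50, adjusted p = 0.0815 by limma). Olfm4 was at 27033, 48025, 6865 and 31728 in germ-free and at 38538, 73094, 60794 and 81897 in conventionalized libraries. Germ-free replicate 3 was the lowest of these, and replicate 2 exceeded conventionalized replicate 1. Its log2 difference was -1.41 (SE 0.58, adjusted p = 0.215 by limma).

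Smoc2 was the single member of 10 whose groups did not overlap, and 1255 of the 20214 genes (6.21%) lay wholly lower in germ-free libraries in the same way. It was at 4554, 6349, 1309 and 5759 in germ-free and at 7193, 10874, 9473 and 12660 in conventionalized libraries, with a log2 difference of -1.36 (SE 0.45, adjusted p = 0.146 by limma). Every germ-free value of Smoc2 was below every conventionalized one. Ascl2 was at 1478, 2267, 361 and 1091 against 1690, 2314, 2851 and 4275, a log2 difference of -1.29 (SE 0.48, adjusted p = 0.186 by limma), with germ-free replicate 2 inside the conventionalized range. Tnfrsf19 was at 287, 485, 3.47 and 316 against 241, 918, 731 and 1105. Its groups overlapped and its log2 difference of -2.46 (SE 1.17, adjusted p = 0.260 by limma) rested on the near-absence of counts in germ-free replicate 3.

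The negative regulators of the pathway and Lrig1 showed smaller differences. Axin2 was 0.84 lower in germ-free mice (SE 0.31), Rnf43 0.78 lower (SE 0.36), Znrf3 0.65 lower (SE 0.34) and Lrig1 0.98 lower (SE 0.31), with adjusted p of 0.127 to 0.290 by limma. For Lrig1, 3 of 4 germ-free libraries lay below every conventionalized one. Sox9, the gene of the sort reporter, was at 4435, 3602, 2146 and 3406 in germ-free and at 3098, 5019, 5295 and 6672 in conventionalized libraries. Its groups overlapped, with 1 germ-free library below all conventionalized ones (log2 difference -0.56, SE 0.31, adjusted p = 0.316 by limma).

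Germ-free replicate 3 was the lowest of all 16 libraries for 8 of the 10 genes, and for 27.2% of all genes. Without it the differences shrank to -0.88 for Tnfrsf19, -0.83 for Olfm4, -0.77 for Ascl2, -0.84 for Smoc2 and -1.53 for Lgr5. With germ-free replicates 1 and 2 alone against the 4 conventionalized libraries, all 10 genes were still lower in germ-free mice, Lgr5 by 1.32, Rnf43 by 1.05, Tnfrsf19 by 0.80 and Olfm4 by 0.76, and none was called. With all 16 libraries sharing one estimate of the spread, limma called Lgr5 (adjusted p = 0.0192), Lrig1 (0.0317) and Smoc2 (0.0356). That fit called 1672 of 20214 genes in all, 839 higher and 833 lower in germ-free mice. The number of genes called over the whole table fell to 1 without germ-free replicate 1, to 272 without germ-free replicate 3 and to 146, 148 and 253 without conventionalized replicates 1, 2 and 4, and rose to 684 without germ-free replicate 2. Lgr5 was called without germ-free replicate 2 (-2.18, adjusted p = 0.0393) and without conventionalized replicate 1 (-2.38, adjusted p = 0.0438 by limma).

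**Figure D1:**
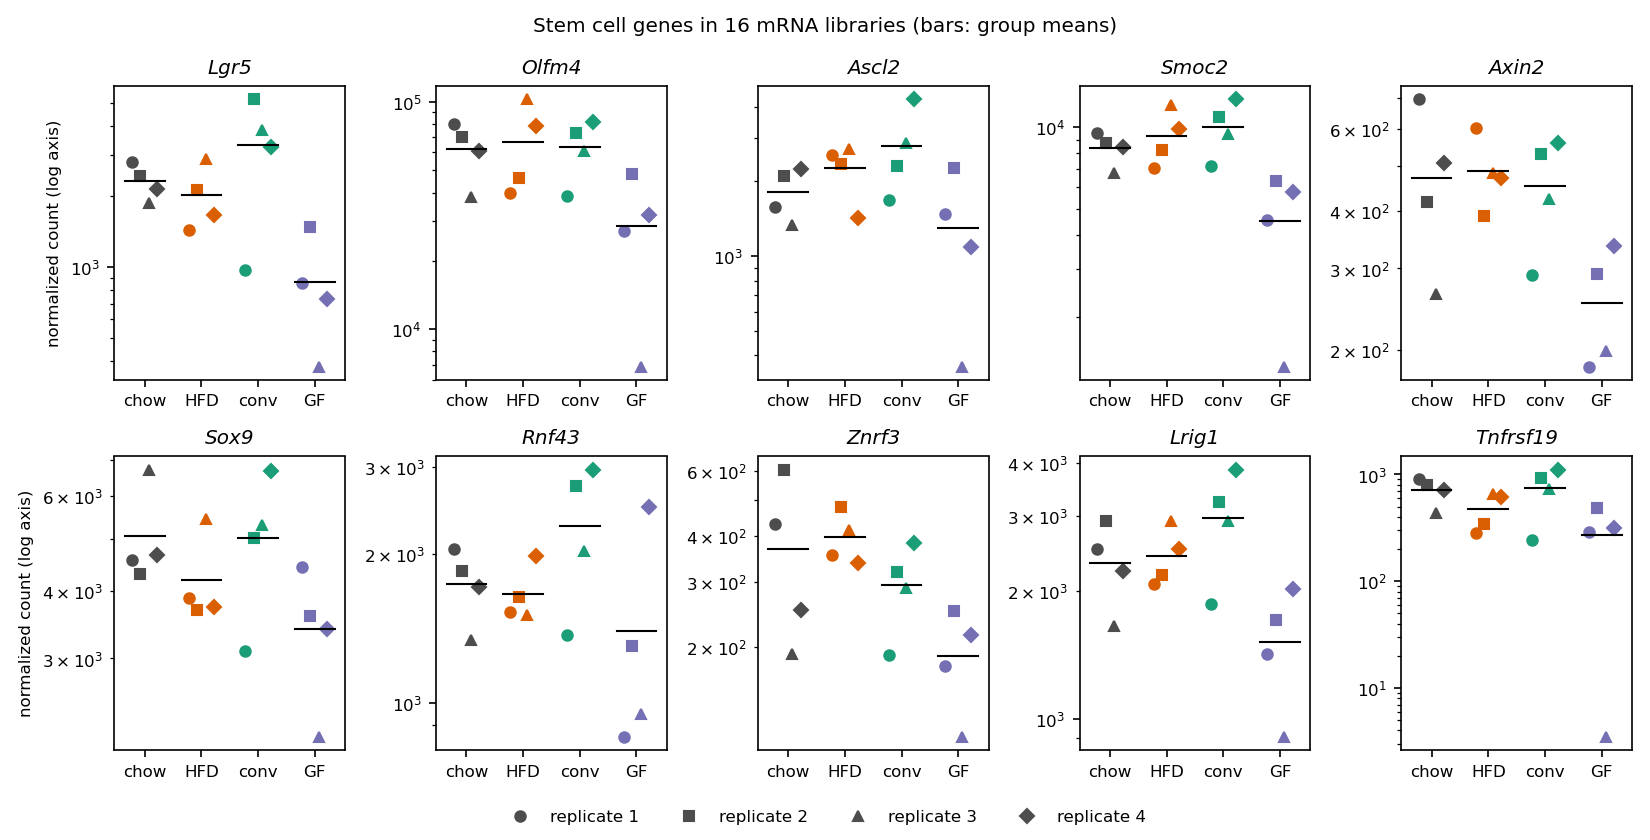
Normalized counts of the 10 genes (log axis) in the 4 libraries of each group; marker shapes give the replicate and bars the group mean. HFD is high fat diet, conv conventionalized and GF germ-free. Germ-free replicate 3 is the lowest of all 16 libraries for 8 genes, and Tnfrsf19 falls to 3.47 there.

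**Figure D2:**
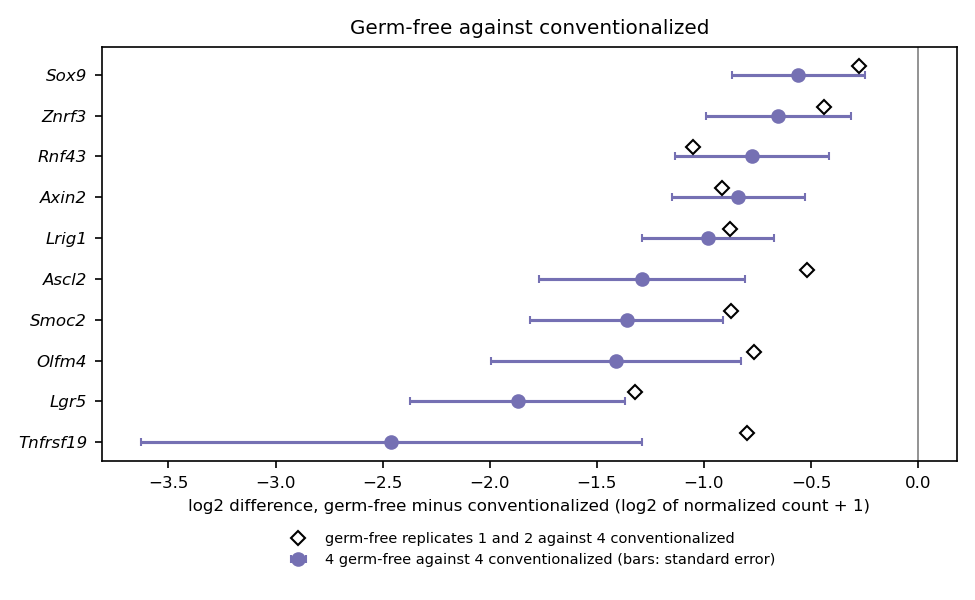
Log2 difference (germ-free minus conventionalized) of each gene with its standard error, and the same with germ-free replicates 1 and 2 alone (open diamonds). All points lie below 0, and the open diamond of Tnfrsf19 is at -0.80 against -2.46 with all libraries.

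Markers of other cells moved in the same comparison. Of 8 enteroendocrine markers, hormone cell genes, all 8 were higher in germ-free mice and 3 passed the test: Neurod1, a transcription factor of these cells, by 2.39, Scg5 by 2.21 and Cpe by 1.95 on the log2 scale (adjusted p = 0.0129, 0.0129 and 0.0139 by limma). The summed level of the 8 was 314555 to 690332 normalized counts in germ-free and 59059 to 184023 in conventionalized libraries. Of 10 cell cycle genes, all 10 were lower and 4 passed, among them Aurkb (-1.89), Cdk1 (-1.77) and Cenpf (-1.70), with adjusted p of 0.0392, 0.0474 and 0.0398 by limma. Their sum was 2343 to 11201 in germ-free and 16270 to 21494 in conventionalized libraries. Of 5 tested stromal or endothelial markers, Pecam1 of endothelial cells rose (log2 difference 2.22, adjusted p = 0.0399 by limma), and the sum over the 8 listed was 329 to 714 against 45.8 to 376. Of 8 enterocyte markers, Sis, the sucrase gene, rose (log2 difference 2.02, adjusted p = 0.0158 by limma), while 5 lay below 0. Epcam was at 14073 to 23145 in germ-free and at 21656 to 35765 in conventionalized libraries and was not called. No marker of these lists was at 0 in all libraries of either group. The part of these cell types in the members' differences was not tested.

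Other genes of the pathway did not follow one direction. None of 27 Wnt receptors and signal transducers passed in germ-free against conventionalized mice, with 18 below 0 and a median of -0.30. Of 12 tested ligands and secreted inhibitors, Wif1, a secreted Wnt inhibitor, rose by 2.96 (adjusted p = 0.0129 by limma), from 117 ± 66.3 to 828 ± 384 normalized counts (SD, n = 4). Of 13 other Wnt target genes, Prox1 rose by 1.52 and Id2 by 1.5 (adjusted p = 0.0315 and 0.0322 by limma), while 10 of the 13 lay below 0. Among 13 other stem cell genes, 12 lay below 0 with a median of -0.87, and none passed.

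On the high fat diet no member differed from chow by limma, which called 135 of 16421 genes (0.822%), 34 higher (0.207%) and 101 lower (0.615%). Differences ran from -0.62 for Tnfrsf19 (SE 0.32, adjusted p = 0.240) to 0.30 for Ascl2 (SE 0.23, adjusted p = 0.447), with a median of 0.06, beside 0.05 over all genes. Lgr5 was at 2802, 2432, 1880 and 2155 in chow and at 1433, 2138, 2880 and 1661 on the high fat diet, and the groups overlapped. Olfm4 was at 79691, 69863, 38314 and 61174 in chow and at 39870, 46437, 102736 and 78723 on the high fat diet. Without chow replicate 3, Olfm4 was at -0.167, Lgr5 at -0.324, Tnfrsf19 at -0.843 and Ascl2 at 0.167, no member was called and 69 genes were called in all. Over the whole table, 2590 genes were called without chow replicate 2, and 0 without chow replicate 1 or 4 or without any 1 of the 4 high fat diet libraries.

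The digits in the column names put replicates 1 and 2 of both diets in one number series and replicates 3 and 4 in another. What the digits stand for is not stated. Within replicates 1 and 2, 9 of 10 members were lower on the high fat diet, all but Ascl2. Within replicates 3 and 4, 9 of 10 were higher, all but Sox9. That pair includes chow replicate 3, the lowest chow library for 9 of 10 members and the highest for Sox9. Against chow replicate 4 alone, both high fat diet libraries were lower for Tnfrsf19 (661 and 622 against 719) and Axin2 (484 and 470 against 508). Both were higher for Olfm4, Smoc2, Znrf3 and Lrig1, and Lgr5, Ascl2, Rnf43 and Sox9 had 1 library on each side. Olfm4 was at -0.79 in the one pair and at 0.89 in the other, and Tnfrsf19 at -1.44 (adjusted p = 0.0359 by limma) and 0.20. The difference between the series was not tested, and neither was its part in the diet comparison. Of 8 tuft cell markers, 4 fell on the high fat diet, among them Avil (-2.64) and Trpm5 (-2.44), with adjusted p of 0.0389 and 0.0442 by limma, and the sum of the 8 was 1537 to 8554 against 14304 to 31415 in chow. The tuft sum was also below chow in conventionalized (1163 to 11707) and germ-free libraries (5786 to 13242), so chow stood apart from the other 3 groups. None of the 8 enteroendocrine markers was called, and their sum was 29821 to 122031 on the high fat diet and 151979 to 696339 in chow. All 10 cell cycle genes lay above 0 on the high fat diet, with a median of 0.74, and none was called. Their sum was 20562 to 28280 against 8879 to 23122 in chow. The part of these cell types and of cycling cells in the diet values was not tested. Gkn3, a gene of crypt base cells, was the 1 of 13 other stem cell genes that rose, from 994 ± 333 to 2797 ± 993 (SD, n = 4; adjusted p = 0.0442 by limma).

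Conventionalized mice differed from mice on chow in no member either. Limma called 17 of 17941 genes (0.0948%), all lower in conventionalized mice, and 0 to 6 with any 1 library left out, and the members ran from -0.23 for Znrf3 (SE 0.35) to 0.57 for Ascl2 (SE 0.28, adjusted p = 0.475). This comparison shares its conventionalized libraries with the germ-free one and its chow libraries with the high fat one.

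The 10 genes tended to be high or low in the same libraries. Over all 16 libraries the 45 pairwise Pearson correlations of log2 values ran from 0.42 (Axin2 and Sox9) to 0.97 (Olfm4 and Smoc2), with a median of 0.76. Without germ-free replicates 3 and 4 they ran from 0.02 (Sox9 and Znrf3) to 0.94 (Smoc2 and Lrig1), with a median of 0.66 over 14 libraries. Pairs of other genes were not correlated, so whether such values are particular to the members was not tested. Conventionalized replicate 1 was the lowest of its group for all 10 genes, while it was the lowest for 22.2% of all genes, and chow replicate 3 was the lowest of its group for 9 of 10, against 30.5% of all genes.

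Of 10717 other genes with a mean of at least 100 normalized counts, the 5 whose pattern over the 16 libraries was most like the members' mean were Rgmb (Pearson r = 0.97), Swap70 (0.96), Tubb5 (0.95), Tmprss4 (0.95) and Cdc42ep1 (0.95). Rgmb, a BMP co-receptor, ran from 803 to 5310 normalized counts. These values are a description, and the libraries share sort, depth and group.

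In the single-cell libraries the members were read in cells with at least 1 UMI (a counted molecule) of Epcam, the epithelial adhesion gene. There were 1167, 1218, 2041 and 2488 such cells, with median depths of 16378, 16000, 21751 and 15639 UMIs. Cells with a UMI of Ptprc, the leukocyte gene, made up 3.86%, 4.76%, 19.8% and 10.5% of them.

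Smoc2 and Sox9 were found in the most cells and Tnfrsf19 in the fewest. Smoc2 had a UMI in 36.6%, 43.5%, 29.2% and 29.6% of Epcam-positive cells. Sox9 was detected in 33.0%, 42.8%, 33.8% and 33.8%. Lgr5 was detected in far fewer: 6.51% (exact 95% binomial interval 5.17 to 8.08), 7.39% (5.98 to 9.0), 5.54% (4.58 to 6.62) and 7.52% (6.51 to 8.62), and Tnfrsf19 in 1.77% to 2.71%. Intervals cover counting error only.

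Cells were also thinned to 3000 UMIs each, which left out 286 cells of WT set 2 and 290 of KO set 2. Thinned, Lgr5 was in 1.11% to 2.91% of cells, Smoc2 in 7.41% to 12.1% and Sox9 in 8.65% to 13.4%. T cells served as a comparison cell type: 882 cells of WT set 2 with Ptprc and Cd3 UMIs and no Epcam, at a median of 2867 UMIs. There Lgr5 was in 0.113% of T cells, Ascl2 in 0.113% and Sox9 in 0.680%. Rnf43 and Znrf3 were at 7.65% and 1.91% of thinned T cells against 3.76% and 1.42% of thinned Epcam-positive cells of the same sample. In KO set 2, with 45 thinned T cells, Rnf43 was at 2.22% against 4.00% and Znrf3 at 2.22% against 1.09%. Set 1 held only 6 and 5 T cells and is left out of this comparison. Within set 2, the thinned shares of Rnf43 and Znrf3 in Epcam-positive cells were above those in T cells only for Rnf43 in KO set 2. Shares among 45 T cells rest on very few cells. Shares of these genes are not read on their own as epithelial expression. Whether T cells express Rnf43 or Znrf3 was not tested.

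No member was called between KO and WT. EdgeR's quasi-likelihood test on UMIs summed per sample called 0 of 13254 genes (0%), with 87 at an unadjusted p under 0.05, and DESeq2 called 7, 5 higher and 2 lower in KO, none of them a member. The members' median log2 difference was 0.17, beside 0.00 over all genes. With 2 samples a genotype and large differences between sets, the values of each set are the fuller description.

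Ascl2 was higher in KO in both sets, at 8.86 (WT) and 15.0 (KO) CPM (UMIs of the gene scaled to a common total per sample) in set 1 and at 6.76 and 8.99 in set 2. Its log2 difference was 0.665 (unadjusted p = 0.191, adjusted p = 1 by edgeR). Sox9 was at 34.0 and 46.8 in set 1 and at 37.6 and 41.0 in set 2, Smoc2 at 36.0 and 42.4 and at 29.7 and 33.5, Znrf3 at 4.47 and 5.95 and at 4.36 and 4.73, and Rnf43 at 11 and 12.1 and at 13.4 and 14.2 CPM. Those 5 had the higher value in KO in both sets.

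Olfm4 was the 1 gene lower in KO in both sets, at 3.27 and 2.70 in set 1 and at 31.5 and 29.6 in set 2. Its level differed far more between the sets than between genotypes, 9.64-fold in WT and 10.9-fold in KO. Lgr5 was at 5.71 and 5.57 in set 1 and at 7.62 and 8.55 in set 2. Axin2, Lrig1 and Tnfrsf19 were, like Lgr5, higher in KO in one set and lower in the other. Among cells with no Ptprc UMI the same counts of 5, 1 and 4 members were found. Beside these values, all 8 tuft markers had a positive difference between KO and WT, with a median of 0.58, and none was called. All 13 other stem cell genes (median 0.27) and 12 of 13 other Wnt target genes (median 0.22) also lay above 0. Of 8 enteroendocrine markers, 6 lay below 0 (median -0.28). The part of tuft cells was not tested.

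**Figure D3:**
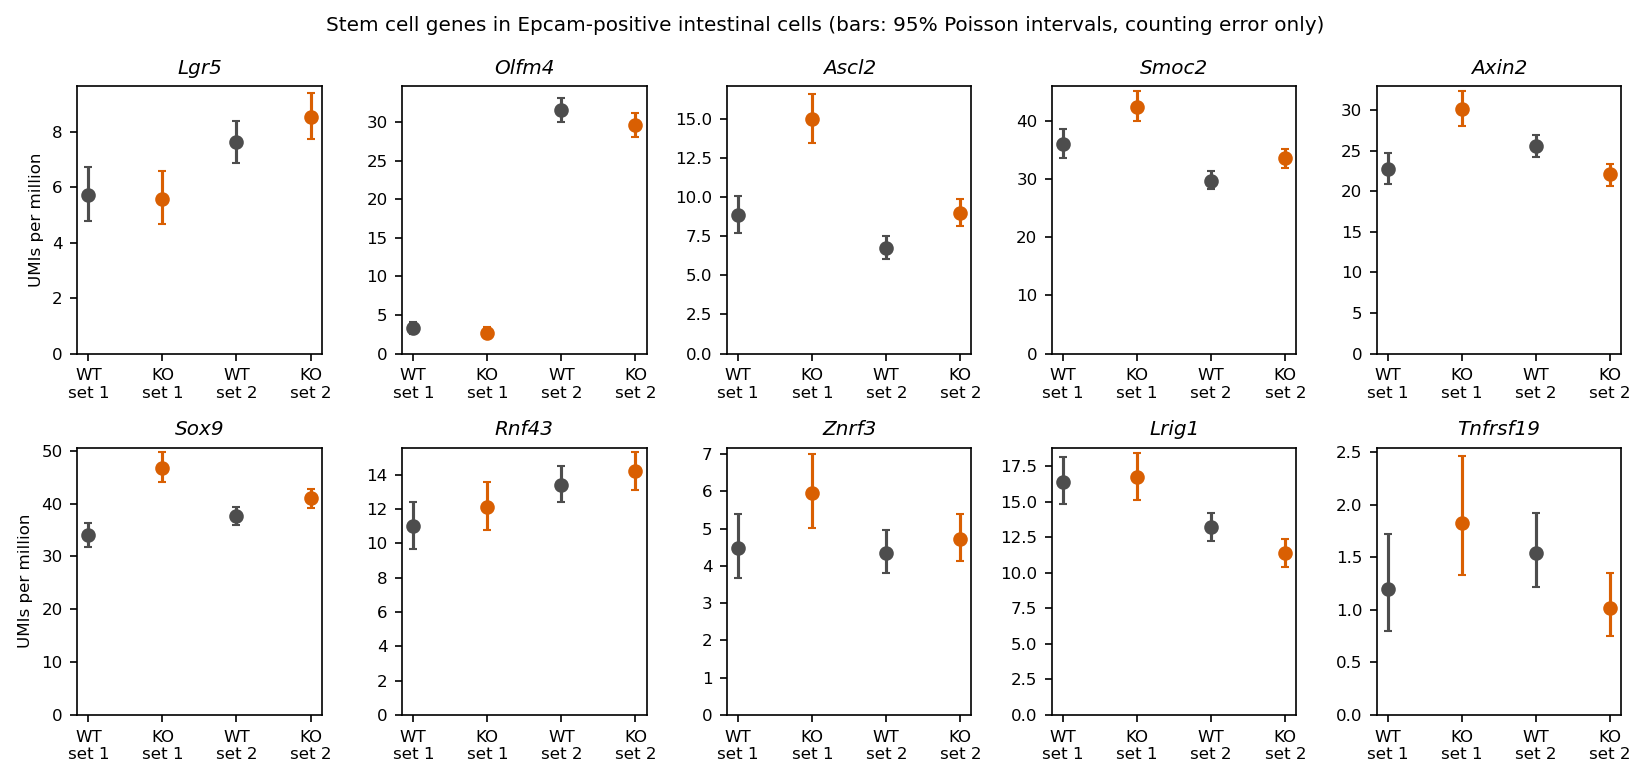
CPM of the 10 genes in Epcam-positive cells of the 4 single-cell samples, with exact 95% Poisson intervals that cover counting error only. Olfm4 is near 3 in set 1 and near 30 in set 2 in both genotypes; Ascl2 is higher in KO than in WT in both sets.

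Epcam-positive cells with a UMI of Mki67 or Top2a, genes of dividing cells, made up 45.6%, 48.9%, 38.6% and 31.6% of them. All 10 members were higher in them than in the remaining cells and passed edgeR's test with the sample as block. The remaining cells pool all other types, enterocytes and goblet cells among them. The test called 8077 of 12013 genes (67.2%), 3921 of them higher (32.6%) and 4156 lower (34.6%) in cycling cells. Cycling cells were deeper, with medians of 17766 to 27189 UMIs against 14068 to 17539.

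Olfm4 and Axin2 had the largest fitted differences. Olfm4 was at 4.89, 3.74, 46.8 and 49.8 CPM in cycling cells and at 1.81, 1.62, 13.3 and 14.7 in the rest (log2 difference 1.39, adjusted p = 3.75e-06 by edgeR). Axin2 was at 36.8, 44.3, 36.0 and 38.7 against 10.1, 15.3, 13.1 and 9.87 (log2 difference 1.37, adjusted p = 9.87e-07 by edgeR). In each sample the cycling cells were higher for both genes, and by CPM ratio Axin2 exceeded Olfm4 in 3 of the 4 samples. Smoc2 rose by 1.22, Ascl2 by 1.10, Lrig1 by 0.95, Znrf3 by 0.89, Rnf43 by 0.54 and Sox9 by 0.51 (adjusted p of 9.87e-07 to 0.00325 by edgeR for those 6 and the 2 above).

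Lgr5 was at 8.04, 6.02, 9.91 and 11.3 CPM in cycling cells and at 3.62, 5.11, 4.86 and 6.5 in the rest, and its log2 difference was the smallest at 0.49 (adjusted p = 0.0178 by edgeR). Thinned to 3000 UMIs a cell, Lgr5 was no longer called (0.37, adjusted p = 0.243), nor was Rnf43 (0.465, adjusted p = 0.0526), and Tnfrsf19 was too low to test. Tnfrsf19 (0.73, adjusted p = 0.0259) also lost its call without cells holding Ptprc (adjusted p = 0.0606) and with DESeq2 (0.0821). Lgr5 lost its call without WT set 1 (adjusted p = 0.0530), without WT set 2 (0.0887) or without KO set 2 (0.0508), and Tnfrsf19 without WT set 1 (0.0631), KO set 1 (0.0513) or KO set 2 (0.123).

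**Figure D4:**
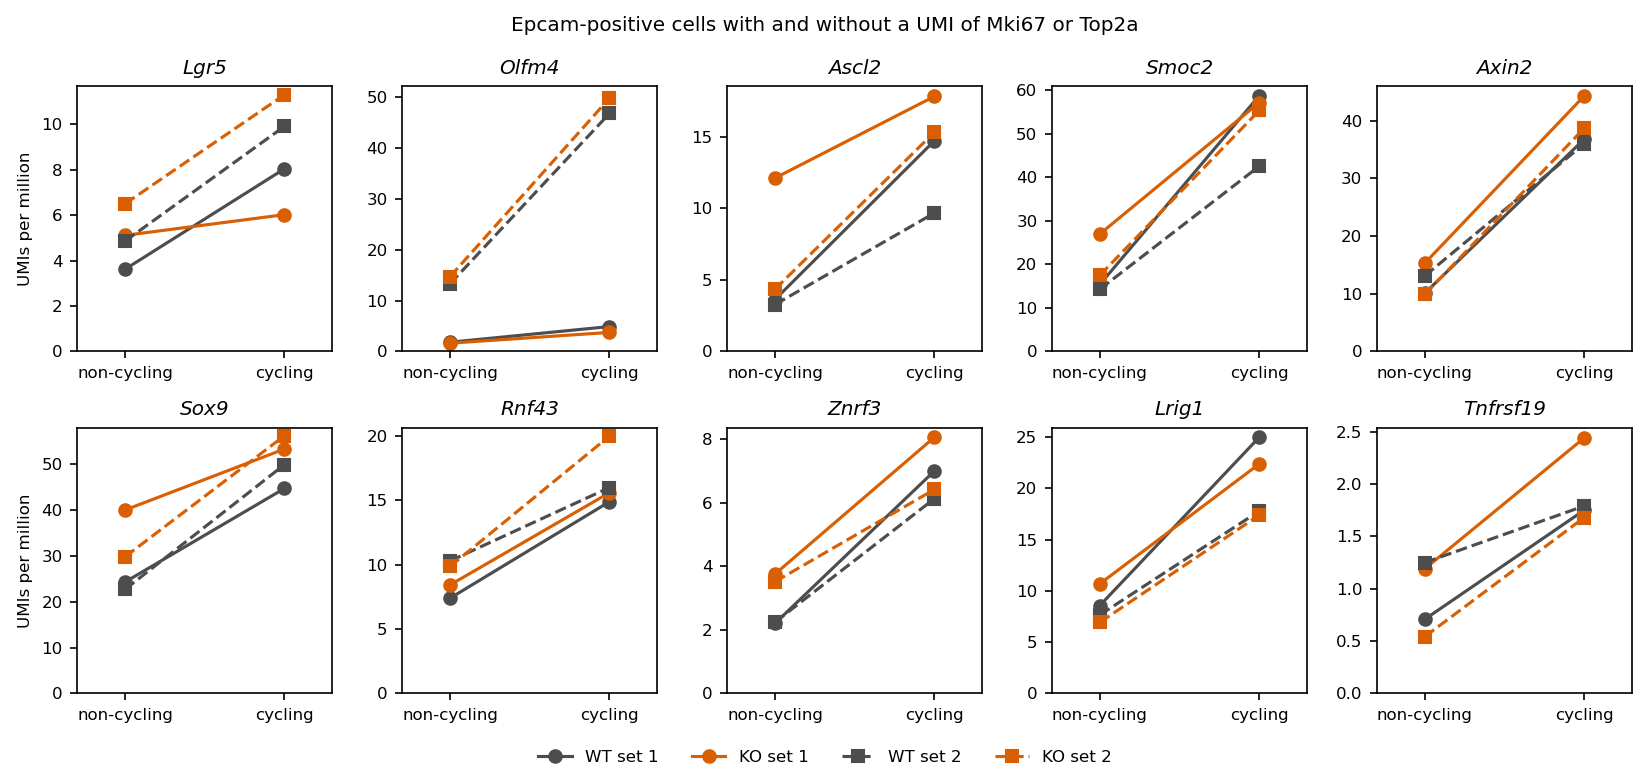
CPM of the 10 genes in Epcam-positive cells without (left) and with (right) a UMI of Mki67 or Top2a, 1 line per sample. Every line rises to the right; for Lgr5 in KO set 1 the rise is from 5.11 to 6.02.

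In the same comparison 11 of 13 other stem cell genes rose, with Clca3b (1.67), Aqp4 (1.62) and Nap1l1 (1.54) the largest. Of 11 tested other Wnt targets, 5 rose, among them Ephb2 (1.39), a receptor that positions crypt cells, Cd44 (1.29) and Ccnd1 (1.22), and 4 fell, among them Nkd1 (-1.59), Prox1 (-1.02) and Sp5 (-1.0). Of 22 receptors and transducers 9 rose, led by Fzd2 (1.83), and 5 fell, led by Fzd4 (-0.79). Of 5 tested ligands and secreted factors, Wls, which carries Wnt proteins to the cell surface, rose (0.67), as did the inhibitor Sfrp5 (0.47), while Wnt3 (-1.04), a ligand made by Paneth cells, and Wnt6 (-1.11) fell. All 6 tested Paneth, 8 enteroendocrine and 8 tuft markers fell.

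Levels were then read by marker gates among Epcam-positive cells with no Ptprc UMI. The gates were set after the counts had been seen: at least 4 of 8 markers detected for enteroendocrine and tuft cells, and at least 10%, 5% and 1% of UMIs from Paneth, goblet and enterocyte markers. Cells outside the enteroendocrine, tuft, Paneth and goblet gates with a UMI of Mki67 or Top2a formed the cycling class, even above the enterocyte cut. The enterocyte gate therefore held no cell with such a UMI. Between 81 and 161 cells per sample lay within a factor of 2 of the goblet cut and 87 to 200 of the enterocyte cut, so these gates are ranges of a score. In the tuft gate, 1 to 3 cells per sample were at or 1 marker below the cut, against 8, 15, 19 and 9 for the enteroendocrine gate of 32, 28, 31 and 38 cells. In the tuft gate the medians of Paneth, goblet and enterocyte markers were at most 0.283%, 0.146% and 0.0515% of UMIs.

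Sox9 and Ascl2 were highest in the tuft gate in all 4 samples. Sox9 was at 290, 236, 141 and 287 CPM in the 16, 33, 27 and 38 tuft cells, and at 41.8, 54.1, 46.0 and 55.6 in cycling cells. Ascl2 was at 57.4, 121, 35.9 and 83.4 in the tuft gate and at 17.8, 22.1, 9.17 and 17.9 in cycling cells, and was found in 56.2% to 78.8% of the tuft cells. The exact 95% Poisson intervals of the tuft and cycling values did not overlap for either gene in any sample. They cover counting error only, not the spread between cells or animals.

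Smoc2 was highest in the enteroendocrine gate in the 2 WT samples and in the tuft gate in the 2 KO samples. It was at 58.2 to 116 and 41.7 to 118 CPM in these gates over the 4 samples, beside 45.1 to 68.0 in cycling cells. In both WT samples the Poisson interval of the enteroendocrine gate overlapped that of cycling cells. In both KO samples the interval of the tuft gate lay above that of cycling cells but overlapped that of the enteroendocrine gate. Lgr5 was nearly absent from the enterocyte gate, at 0 to 0.260 CPM, and from the goblet gate, at 0 to 2.92. The 0 in 125 goblet cells of WT set 1 allows up to 1.33 CPM by the limit of 3 counts. In cycling cells outside the enteroendocrine, tuft, Paneth and goblet gates Lgr5 was at 8.06, 6.72, 8.63 and 11.9 CPM. Cells of no gate, without a UMI of Mki67 or Top2a, held 8.38, 9.89, 9.62 and 13.5. The Poisson intervals of these values, counting error only, overlapped in each sample. The tuft gate was at 10.4 to 16.9, on 5 to 9 UMIs of Lgr5 per sample. In the Paneth gate Lgr5 was at 6.68 and 4.68 in set 1 and at 18.6 and 16.8 in set 2. Cells of that gate were the deepest, with medians of 37829 to 70515 UMIs, and the part of doublets in these values was not tested. Olfm4 was at 0 to 0.464 CPM in the enterocyte gate, the lowest of the gates in 3 samples and tied at 0 with the tuft and goblet gates in KO set 1.

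**Figure D5:**
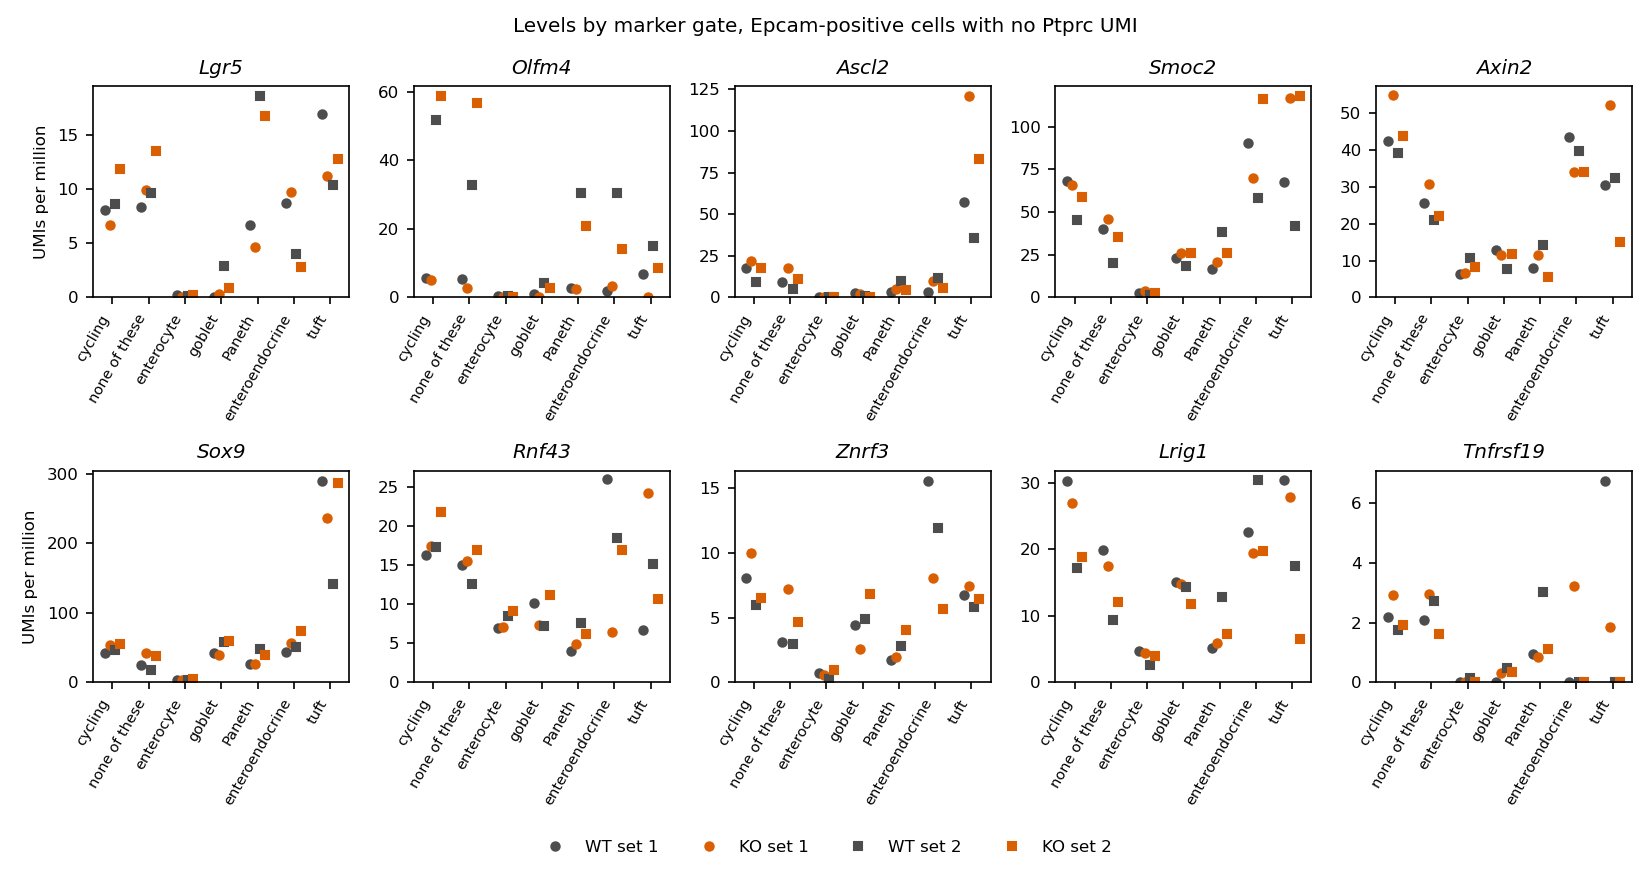
CPM of the 10 genes in 7 marker gates of Epcam-positive cells with no Ptprc UMI, 1 point per sample. Sox9 and Ascl2 peak in the tuft gate in every sample, and Lgr5 and Olfm4 are near 0 in the enterocyte gate.

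Before thinning, the members were found in the same cells more often than the product of their shares would give. In all 45 pairs and all 4 samples the observed number of cells with both genes exceeded that product, without allowance for depth. Lgr5 and Olfm4 met in 20, 20, 83 and 128 cells, against 3.91, 3.84, 14.5 and 23.5, a ratio of 5.12 to 5.72. Of the cells with Lgr5, 26.3%, 22.2%, 73.5% and 68.4% also held Olfm4. Lgr5 and Ascl2 met 3.71 to 7.95 times as often as the product. Among the highest ratios were those of Lgr5 and Tnfrsf19, 6.76 to 12.7, with 11 to 38 cells, and among the lowest were those of Sox9 and Rnf43, 1.19 to 1.70.

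After thinning to 3000 UMIs, Lgr5 and Olfm4 met in 1, 4, 21 and 31 cells against 0.156, 0.293, 1.76 and 4.13. Smoc2 and Sox9 had ratios of 1.98 to 2.44 over 23 to 51 cells. Of the 180 thinned values (45 pairs in 4 samples), 24 were below 1, 18 of them with no cell holding both genes. The others include Sox9 and Rnf43 in WT set 1 (0.361, 1 cell against 2.77), Sox9 and Znrf3 in KO set 2 (0.713) and Olfm4 and Sox9 in KO set 1 (0.879). These 24 had at most 2.81 expected cells. The 41 values with at least 5 expected cells ran from 1.34 to 4.17. Before thinning, 11 cells of WT set 2 and 3 of KO set 2 held a UMI of all 10 genes, and none of set 1 did.

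Of 7452 genes found in at least 2% of thinned cells in every sample, those most enriched with Lgr5 by their lowest ratio over the 4 samples were Soat1 (4.70 to 6.44), Rgmb (3.82 to 12.2), Efna4 (3.73 to 6.17), Cdca7 (3.32 to 4.49) and Zfhx3 (3.31 to 5.26). These ratios rest on 13, 21, 30 and 64 thinned cells with Lgr5 and are a description. Rgmb was also the gene most like the members' mean in the mRNA libraries.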

How the data were processed

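Values of the mRNA table are a normalized signal (counts per gene after a scaling not given in the sources used here) that the authors deposited. STAR, Salmon, DESeq2, Cell Ranger and the mm10 build are named in the submitters' processing notes without versions or roles. The SMARTer Ultra Low Input kit was used, per the labels' protocols. The matrices hold UMI counts the authors deposited (10x Chromium, per the labels; software version 3.0.1 per the file headers of set 2). Of the mRNA entries, 381 had no gene name (0.0338% to 0.0804% of each library) and stayed out of tests. From 47% to 55.7% of values were whole multiples of a step (tolerance 0.01), so reads were not recovered. No column of values was left unused (0).

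Limma 3.58.1 (R 4.3.3, trend) was fitted to log2(normalized count + 1) of genes with a mean of at least 10. Folds of low genes are understated on this scale. Cells with at least 500 genes, 1000 UMIs and under 25% mitochondrial UMIs were kept, and the highest Scrublet scores (0.8% per 1000 barcodes) were removed as doublets. Summed UMIs were tested with edgeR 4.0.16 (TMM, filterByExpr), with DESeq2 1.42.0 as an alternative. Calls are at a Benjamini-Hochberg adjusted p under 0.05. The limma and edgeR tests were tried on simulated data. Exon lengths are from GENCODE vM21. MiR-375 itself cannot be read from these matrices, so the KO label was not checked.

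All members are named, with at most 3 called genes per list and direction, and 5 genes by each measure of likeness. The members and lists were chosen with earlier results of these data known.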

Additional observations from a re-analysis of the deposited data

Results flagged for a closer look

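Of 40 groups of 4 libraries (10 genes in 4 groups), 2 had a library far from the others, by a gap above the 95% critical value of Dixon's test, about what chance gives at 1 in 20. Both were of Sox9. Chow replicate 3 had 6705 normalized counts of Sox9 against 4303 to 4659 in the other chow libraries (gap 0.852 of the range). High fat diet replicate 3 had 5444 against 3693 to 3876 (gap 0.895 of the range).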

How the results depend on the processing

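Genes called in germ-free against conventionalized mice numbered 453, and 1672 with all 16 libraries in the fit (3 members called), 494 with a replicate block and 166 with germ-free replicates 1 and 2 alone. Leaving out 1 library each gave 1 to 684 genes and 0 to 1 members. Of 90 other values of the members here, 87 kept direction and call and 3 gained a call. For the high fat diet, 135 became 317 with no filter, 33 with all 16 libraries and 271 with a replicate block. With the number series as block it was 1535. In replicates 1 and 2 it was 208 (1 member called), and in replicates 3 and 4 it was 251. Leaving out 1 library each gave 0 to 2590. For conventionalized against chow, 17 became 39 with no filter, 31 at a mean of at least 50, 26 with all 16 libraries and 165 with a replicate block, and 0 to 6 with 1 library left out. For KO against WT, 0 became 7 with DESeq2 and 1 with no filter, and 0 to 2 with 1 sample left out. The set as replicate block called 0, with 343 genes at an unadjusted p under 0.05. For cycling cells, 8077 became 4772 with no replicate block (5 members called, from 10) and 4467 when thinned, where Tnfrsf19 could not be tested. Of 10 members, 3 had a higher share of cells in KO in both sets and 2 a lower one. These counts were 6 and 0 when thinned, 5 and 1 under 10% mitochondrial UMIs, and 1 and 2 without Ptprc. The replicate numbers did not meet the bar for pairing. Deviations of same-numbered libraries correlated at 0.152, -0.132, 0.393 and 0.0101 (germ-free and conventionalized) and at 0.0552, 0.155, 0.0731 and 0.225 (diets), and not every library matched its own number best. Germ-free and conventionalized libraries of the same replicate number carry neighbouring numbers in their column names, whose meaning is not stated. In all 4 such pairs, 8 of 10 members were lower in germ-free mice. The replicate block called 0 members there (Lgr5 adjusted p = 0.0507 by limma).

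Some directions turned. On the high fat diet in replicates 3 and 4, Lgr5 was at 0.120, Rnf43 at 0.190 and Tnfrsf19 at 0.198. In replicates 1 and 2, Olfm4 was at -0.794, Smoc2 at -0.260, Axin2 at -0.153, Znrf3 at -0.304 and Lrig1 at -0.344. With quantile normalization Olfm4 was at -0.102, Smoc2 at -0.192 and Lrig1 at -0.0880, and for conventionalized against chow Axin2 was at 0.0748. In KO against WT, Olfm4 was at -0.0897 with the set as replicate block, -0.00637 under 10% mitochondrial UMIs and -0.0653 with the block and no Ptprc, and Lrig1 was at 0.0641 when thinned. With 1 library left out, diet values ran from -0.192 to 0.264 (Olfm4), -0.00555 to 0.253 (Smoc2), -0.137 to 0.329 (Axin2), -0.175 to 0.0295 (Rnf43), -0.0372 to 0.512 (Znrf3) and -0.0778 to 0.195 (Lrig1). Conventionalized against chow ran from -0.191 to 0.248 (Olfm4), -0.272 to 0.194 (Axin2), -0.195 to 0.174 (Sox9), -0.493 to 0.0564 (Znrf3) and -0.339 to 0.392 (Tnfrsf19). KO against WT ran from -0.101 to 0.328 (Lgr5), -2.41 to 2.09 (Olfm4), -0.0493 to 0.611 (Smoc2), -0.177 to 0.463 (Axin2), -0.448 to 0.353 (Lrig1) and -0.457 to 0.569 (Tnfrsf19). Their cause was not tested. With 2 samples a genotype, leaving out 1 assumes that the lone sample varies like the others. Low counts limit Tnfrsf19 and Znrf3 in single cells.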

Other observations

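The difference between the single-cell sets was not the same for all members. Beside Olfm4, which was 9.64-fold (WT) and 10.9-fold (KO) higher in set 2, Lgr5 was 1.33-fold and 1.53-fold and Rnf43 1.22-fold and 1.17-fold as high in set 2 as in set 1, while Ascl2 was at 0.763 and 0.598, Smoc2 at 0.826 and 0.791 and Lrig1 at 0.806 and 0.681 of its set 1 level. Fabp6, a bile acid-binding protein of the ileum, picked outside the naming rule, was 4.31-fold and 4.61-fold higher in set 2, and Fabp1 was at 0.485 of its set 1 level in WT and 3.77-fold higher in KO. What differed between the preparation of the sets is not given in the labels, and its part in these values was not tested.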
